A study of Schizosaccharomyces pombe with 50 samples.

Results

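The mating pheromone genes of fission yeast and their receptor genes were followed by ChIP-seq in quiescent (Q) and vegetative (V) cells. The set was chosen by gene name, as the 9 windows of the 6613 in the ORF tables named mfm1, mfm2, mfm3, mam1, mam2, mam3, map1, map2 and map3. Of these, 4 encode pheromone precursors and 2 encode receptors, while mam1 encodes an exporter, mam3 an agglutinin and map1 a transcriptional regulator. All libraries came from Schizosaccharomyces pombe strain Hu3112, genotype mat1-M smt-0 pht1-myc, in which the M mating type is fixed and H2A.Z carries a Myc tag. Q cells had spent 24 h in glutamate minimal medium lacking nitrogen, and V cells came from mid-log cultures in that medium with its nitrogen source. Chromatin was precipitated for RNA polymerase II with phosphorylated S5 or S2 in its tail, and for H3K4me3, H3K9ac, H2A.Z (through the tag), H3, H3K9me2 and H3K9me3, with 3 Q and 3 V libraries each, 48 in all. The study describes its replicates as biological triplicates of this single strain.

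In fission yeast, nitrogen starvation turns on the transcription factor Ste11, which binds a sequence called the TR box upstream of mating genes. Cells of the M type secrete M-factor, a short farnesylated peptide made from the precursors of mfm1, mfm2 and mfm3 and exported by the transporter Mam1, and they sense P-factor through the receptor Mam2. Cells of the P type secrete P-factor, made from the precursor of map2, and sense M-factor through the receptor Map3. Map1 is a MADS-box protein needed for the genes of P cells, and Mam3 is a surface agglutinin of M cells. Phosphorylation of the polymerase at S5 marks early and at S2 later transcription, and H3K4me3 usually marks the start of active genes.

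The counting windows did not cover the 9 genes evenly. The study describes an ORF window as the whole gene with 200 bp added on either side. A TSS window was 400 bp wide and began at the same lower coordinate as the ORF window, whatever the strand. For the 5 minus-strand genes (mfm2, mam1, mam3, map2 and map3) the TSS window therefore lay over the 3′ end. The deposited windows follow build ASM294v2 and the annotation used here is RefSeq ASM294v3. In this annotation the ORF windows of mam1, mam2, mam3, map2 and map3, genes of 1 exon, held the whole gene. Those of mfm1, mfm2 and mfm3 (2 exons each) held 5.3%, 93.9% and 92.9% of the gene, and that of map1 (3 exons) held 21.2%. Why they fell short was not tested. No window lay on another chromosome than its gene, and 4118 of 6521 windows matched by identifier began exactly 200 bp below the gene, 483 of them within the last 500 kb of a chromosome. In that annotation mfm1 lies at I 4917015 to 4917521 on the plus strand. Its ORF window, I 4916403 to 4917041, begins 612 bp upstream and ends 26 bp after the annotated start, so that it holds 0.0% of the coding sequence. For mfm2 (I 2912762 to 2913250, minus strand) and mfm3 (II 700364 to 700700, plus strand) the ORF window holds the whole coding sequence.

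Among the longer genes, mam1 (II 2596405 to 2600486, minus), mam2 (I 4780688 to 4781922, plus) and mam3 (I 1856833 to 1860689, minus) are covered from end to end. The ORF window of map1 (I 5292705 to 5294751, plus, 3 exons) reaches 433 bp into the gene and covers 21.2% of it. The window of map2 (III 986014 to 986684, minus) is 4125 bp wide, and 16.3% of it is the annotated gene. For map3 (I 2833231 to 2834988, minus) 54.3% of the window is the gene, and his6, on the opposite strand, overlaps 1955 bp of the window. In the tables the window of mfm3-antisense-1 spans that of mfm3, and the window of map1-antisense-1 spans that of map1. In the annotation the non-coding gene SPNCRNA.5728 overlaps 3699 bp of the mam1 window and ura6 overlaps 1355 bp of the map2 window. Both lie on the opposite strand. ChIP signal carries no strand, so the genes of such a pair cannot be told apart.

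**Figure D1:**
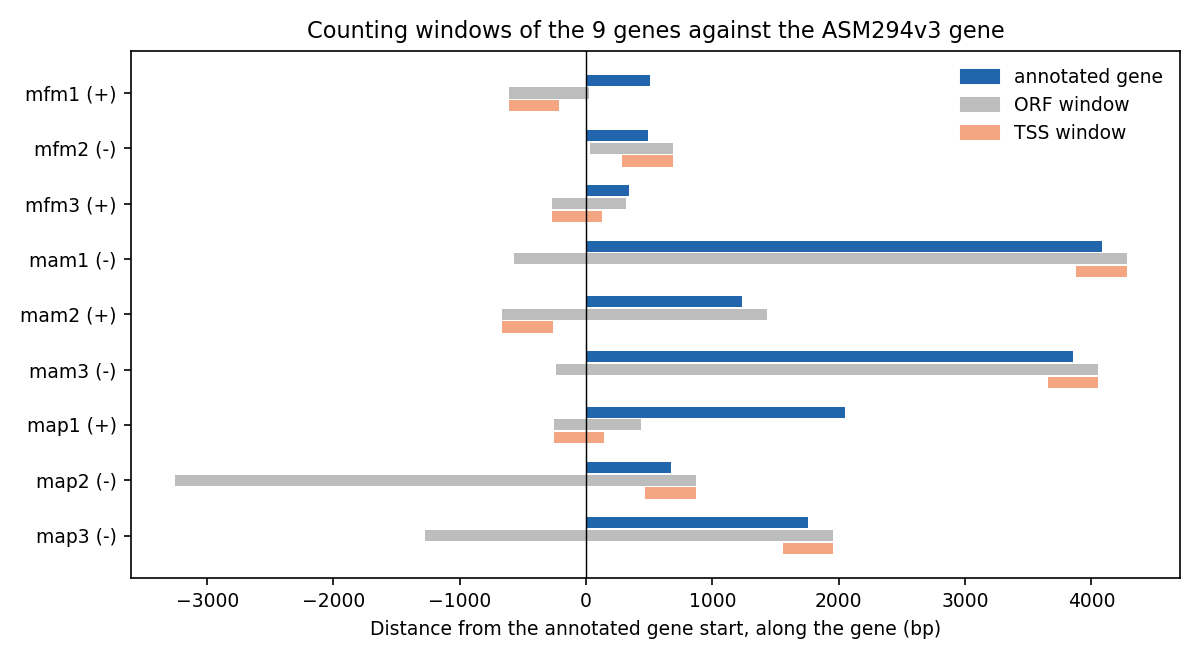
The annotated gene (blue) and the ORF (grey) and TSS (orange) counting windows of each of the 9 genes, drawn along the gene with 0 at the annotated start in ASM294v3 and distances in bp. The TSS windows of mfm2, mam1, mam3, map2 and map3 lie over the 3′ end, and the ORF window of mfm1 ends 26 bp after the start.

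The 3 M-factor genes are shown by their spliced coding sequences because they encode nearly the same last stretch and short reads from it could be shared. The sequences are those of RefSeq ASM294v3, with the last 13 codons in capitals, which hold the peptide, the residues trimmed from its end and the stop codon.
mfm1: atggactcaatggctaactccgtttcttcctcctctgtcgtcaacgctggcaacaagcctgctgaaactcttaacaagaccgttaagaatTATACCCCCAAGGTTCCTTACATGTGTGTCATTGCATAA
mfm2: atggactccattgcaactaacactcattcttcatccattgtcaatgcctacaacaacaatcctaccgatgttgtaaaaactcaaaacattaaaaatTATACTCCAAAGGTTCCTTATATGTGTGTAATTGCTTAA
mfm3: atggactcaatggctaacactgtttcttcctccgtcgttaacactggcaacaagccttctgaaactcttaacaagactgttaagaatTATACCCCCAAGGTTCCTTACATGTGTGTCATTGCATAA
The 39 capital bases were identical in mfm1 and mfm3, and mfm2 differed from either at 5 positions. Reads were 36 bases long, and of the stretches of 36 bases in the ORF window 10.2% occur more than once in the assembly for mfm3, 17.6% for mam3 and 2.62% for map2. For the other 6 genes the share was 0%. The placing of reads with several matches is not stated in the sources used here, so values of mfm3 and mam3 are uncertain to that extent.

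Upstream sequences of the genes of M cells are shown because all but that of mfm2 lie partly in the ORF windows and because they carry letters of the TR box. The 250 bases before the annotated start of mfm1 (chrI:4916765-4917014, plus strand) and of mfm3 (chrII:700114-700363, plus strand, where the annotated start is the start codon) held TTCTTTGTT on the reverse strand, seen in capitals as its reverse complement.
mfm1: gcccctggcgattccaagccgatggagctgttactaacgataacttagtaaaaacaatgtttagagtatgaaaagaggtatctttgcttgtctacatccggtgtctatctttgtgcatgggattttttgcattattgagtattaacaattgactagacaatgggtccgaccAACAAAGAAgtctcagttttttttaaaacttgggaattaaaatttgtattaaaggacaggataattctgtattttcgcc
mfm3: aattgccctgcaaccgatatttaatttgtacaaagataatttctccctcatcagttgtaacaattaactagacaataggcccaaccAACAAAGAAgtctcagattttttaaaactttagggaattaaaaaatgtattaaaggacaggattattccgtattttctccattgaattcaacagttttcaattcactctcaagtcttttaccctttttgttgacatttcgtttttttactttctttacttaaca
The shorter core CTTTGTT was found on either strand upstream of mfm2 (chrI:2913306-2913344, minus), mam1 (chrII:2600617-2600655 and chrII:2600531-2600569, minus), mam2 (chrI:4780542-4780580, plus) and mam3 (chrI:1860700-1860738, minus), again in capitals.
mfm2: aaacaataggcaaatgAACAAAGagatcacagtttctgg
mam1, first: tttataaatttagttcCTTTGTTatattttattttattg
mam1, second: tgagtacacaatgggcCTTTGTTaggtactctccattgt
mam2: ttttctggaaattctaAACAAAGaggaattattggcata
mam3: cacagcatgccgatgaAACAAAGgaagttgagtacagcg
Searched on both strands from 250 bases before to 50 after the annotated start, TTCTTTGTT was present in 3 of the 9 genes (mfm1, mfm3 and map1) and in 2.00% of 5112 promoters of the same length. CTTTGTT, which lies within the longer motif, was present in 7 of the 9 (all but map2 and map3) and in 10.3% of the 5112. These are matches of letters only.

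Each deposited value was the number of reads in a window divided by a size factor of its library, so values are relative to the other windows of a table, and a change in the share of cells cannot be told apart from a change per cell. Libraries held 856936 to 20673131 reads in ORF windows and 170278 to 5319910 in TSS windows. The polymerase libraries of Q replicates 2 and 3 differed by less than sampling noise alone would give (chi-square divided by its degrees of freedom 0.778 to 0.980), and they are counted as 1 sample in means. For H2A.Z this ratio in TSS windows was 0.990 between V replicates 2 and 3 and 1.08 between Q replicates 2 and 3. In ORF windows it was 1.83 and 1.29. H2A.Z libraries were kept separate, so SE and adjusted p of H2A.Z may also be too small. In Q replicate 1 the 8 antibodies gave nearly the same TSS profile, with a mean Spearman's rho of 0.932 over 28 pairs, against 0.421 and 0.347 in Q replicates 2 and 3 and 0.227 to 0.257 in V libraries. In ORF windows this mean was 0.997 in Q replicate 1, 0.968 and 0.911 in Q replicates 2 and 3 and 0.772 to 0.866 in V libraries. Windows of Q replicate 1 thus ranked nearly alike for all antibodies in both kinds of window. Values were not divided by window width here, and ORF windows differ in width. Width thus enters the ORF correlations, which cannot be set beside those of TSS windows. The S2 TSS column of V replicate 3 held the same reads as that of H3K9me2 in 6612 of 6613 windows, including all 9 genes. This S2 column held 243743 reads, against 2668630 and 2607488 in S2 V replicates 1 and 2. Its Spearman's rho with these was 0.564 and 0.540, against 0.968 between them. S2 fits of TSS windows include this column, so their calls and shares are not of S2 alone. H3K4me3 V replicate 1 was shallow, with 1700594 reads in ORF windows, against 5395526 and 5675721 in the other V libraries. Changes were fitted with limma on log2(value + 1), which understates changes of low windows, and a window was called at an adjusted p under 0.05 over the whole table and a log2 fold change beyond 1. Errors of fold changes are SE, with n = 3 libraries a state, and all 9 genes passed the filter on low values. For S5 and S2 these fits take Q replicates 2 and 3 as separate libraries, so their SE and adjusted p may be too small. They were refitted with those replicates as 1 library (n = 2 in Q and 3 in V, no block), and the refitted adjusted p is given wherever it lies on the other side of 0.05.

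Calls differed among the M-factor precursor genes, though no test compared the genes and their windows cover unlike parts of them. Both S5 and H3K4me3 rose at mfm1, H3K4me3 rose at mfm3, and neither was called at mfm2. In the ORF window of mfm1, which lies upstream of the coding sequence, S5 was 309.8, 342 and 346 in Q libraries, against 249, 138 and 95.3 in V libraries. Every Q library was above every V library, and V replicate 1 stood nearest to the Q libraries. The change was called (log2 fold change 1.15 ± 0.31, adjusted p = 0.0329, limma), the only S5 call among the 9 genes in ORF windows, where 5.17% of 6580 windows were called higher and 0.714% lower. With Q replicates 2 and 3 as 1 library it was 1.13, with an adjusted p of 0.0476. Without replicate 3 it was 0.81, under the fold threshold, and without replicate 1 it was 1.58.

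S2 over the same window of mfm1 was 339, 358 and 423 in Q libraries, against 349, 284 and 189 in V libraries, and these overlap (log2 fold change 0.48 ± 0.26, adjusted p = 0.209). H3K4me3 there was 214, 218 and 236 in Q libraries, against 156, 51.3 and 46.0 in V libraries. The groups did not overlap, and V replicate 1, whose value rests on 51 reads, again lay closest to the Q libraries. H3K4me3 was called (log2 fold change 1.62 ± 0.41, adjusted p = 0.0154), where 19.4% of 6576 ORF windows were called higher. The call was lost without replicate 2 (log2 fold change 1.39, adjusted p = 0.0675) and without replicate 3 (1.26, adjusted p = 0.0717). Without replicate 1 the log2 fold change was 2.20 (adjusted p = 6.33e-31), a fit with 1 residual degree of freedom whose spread is pooled over windows, and over all alternatives the adjusted p ran between that value and 0.0717.

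In the TSS window of mfm1, which ends 212 bp before the annotated start, S5 was 239, 221 and 227 in Q libraries, against 145, 91.1 and 62.9 in V libraries (log2 fold change 1.27 ± 0.21, adjusted p = 0.00242). H3K4me3 there was 152, 150.0 and 160.0 in Q libraries, against 84.5, 34.6 and 32.3 in V libraries (log2 fold change 1.73 ± 0.31, adjusted p = 2.44e-06). All Q libraries were above all V libraries for both, and both were called. Without replicate 3 the S5 log2 fold change was 0.99, just under the fold threshold.

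At mfm3 the call was in H3K4me3. In the ORF window it was 211, 207 and 197 in Q libraries, against 67.2, 27.0 and 40.9 in V libraries (log2 fold change 2.26 ± 0.31, adjusted p = 0.00182), and the V values rest on 22, 30 and 48 reads. All Q libraries were above all V libraries. S5 was 259, 423 and 428 in Q libraries, against 281, 247 and 279 in V libraries, where Q replicate 1 lay among the V libraries (log2 fold change 0.42 ± 0.20, adjusted p = 0.13). S2 was 335, 401 and 436 in Q libraries, against 479, 478 and 552 in V libraries, with every Q library below every V library (log2 fold change −0.37 ± 0.13, adjusted p = 0.0987). In the TSS window, which spans the annotated start of mfm3, H3K4me3 was 141, 139 and 111 in Q libraries, against 56.3, 14.2 and 25.2 in V libraries (log2 fold change 2.20 ± 0.44, adjusted p = 1.73e-05), a call that rests on 16 to 32 reads in V libraries.

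The remaining precursor gene, mfm2, had the highest S5 level per kb of window among the 9 in both states, and no call. S5 was 462, 768 and 745 in Q libraries, against 563, 886 and 623 in V libraries, which overlap (log2 fold change −0.08 ± 0.12, adjusted p = 0.622). H3K4me3 was 292, 319 and 279.8 in Q libraries, against 189, 264 and 309 in V libraries, which also overlap (log2 fold change 0.25 ± 0.18, adjusted p = 0.254). Histone H3 itself was 487, 604 and 534 in Q libraries, against 398, 329.9 and 356 in V libraries (log2 fold change 0.58 ± 0.14, adjusted p = 0.0511), with every Q library above every V library. When H3K4me3 was read relative to H3, the log2 fold change was −0.33. Over the 3′ end of mfm2, in the TSS window, H3 was 316, 377 and 329 in Q libraries, against 242, 233 and 237 in V libraries (log2 fold change 0.52 ± 0.10, adjusted p = 2.55e-06), past the test and short of the fold threshold. H3K4me3 in that TSS window was 199, 220 and 165 in Q libraries, against 106, 121 and 153 in V libraries. Every Q library was above every V library, as in 45.5% of all TSS windows. This change passed the limma test, as at all 9 genes and 5769 of 6556 windows, and was not called. Over the alternatives its log2 fold change ran from 0.11 to 0.88.

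At mam1, the exporter gene, and mam3, the agglutinin gene, H3K4me3 rose, and the S5 log2 fold change was under the fold threshold. In the ORF window of mam1, H3K4me3 was 2565, 2349 and 2152 in Q libraries, against 1268, 1227 and 1095 in V libraries (log2 fold change 0.98 ± 0.05, adjusted p = 0.000495), which fell just short of a call. In the ORF window of mam3 it was 1867, 1653 and 1405 in Q libraries, against 898, 672 and 665 in V libraries (log2 fold change 1.14 ± 0.07, adjusted p = 0.000495), which was called. In neither gene did Q libraries overlap V libraries. H3K4me3 over the 3′ end of mam1, in its TSS window, was 242, 237 and 168 in Q libraries, against 65.7, 34.6 and 22.0 in V libraries (log2 fold change 2.50 ± 0.28, adjusted p = 2.51e-10). Over the 3′ end of mam3 it was 248, 208 and 169.9 in Q libraries, against 72.0, 39.9 and 29.9 in V libraries (log2 fold change 2.20 ± 0.25, adjusted p = 3.8e-10). Both were called, with all Q libraries above all V libraries, and convergent genes share these windows, hbs1 by 248 bp at mam1 and SPAP11E10.01 by 272 bp at mam3.

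S5 over mam1 was 3585, 3659 and 3717 in Q libraries, against 2319, 3477 and 2401 in V libraries (log2 fold change 0.44 ± 0.13, adjusted p = 0.0457). Over mam3 it was 2622, 2481 and 2481 in Q libraries, against 1787, 1910.4 and 1778 in V libraries (log2 fold change 0.47 ± 0.06, adjusted p = 0.00588). Q libraries were above V libraries at both genes, though V replicate 2 came close to them at mam1, where the refitted adjusted p was 0.0818. S2 over mam3 was 3053, 3019 and 2968 in Q libraries, against 2405, 2532 and 2423 in V libraries (log2 fold change 0.30 ± 0.06, adjusted p = 0.0286, refitted adjusted p = 0.0528), and over mam1 the S2 change did not pass the test (adjusted p = 0.058).

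The P-factor receptor gene mam2 had S5 and S2 above V cells over the gene, with a small change of H3K4me3. S5 was 1251, 1508 and 1437 in Q libraries, against 883, 1053 and 825 in V libraries (log2 fold change 0.61 ± 0.08, adjusted p = 0.00598). S2 was 1567, 1626 and 1643 in Q libraries, against 1307, 1306 and 1110.4 in V libraries (log2 fold change 0.38 ± 0.08, adjusted p = 0.0275, refitted adjusted p = 0.0646). H3K4me3 in the ORF window was 925, 859 and 846 in Q libraries, against 758, 766 and 760.2 in V libraries (log2 fold change 0.20 ± 0.07, adjusted p = 0.0346). All Q libraries were above all V libraries for these 3. In the TSS window, which ends 264 bp upstream of the annotated start and shares 278 bp with the divergent gene SPAC11H11.03C, H3K4me3 was 135, 118 and 137 in Q libraries, against 244, 268 and 265 in V libraries (log2 fold change −0.99 ± 0.12, adjusted p = 1.15e-09). There every Q library was below every V library, just short of a call. It was called with edgeR on recovered reads (−1.08), without replicate 1 (−1.06) and without replicate 3 (−1.01).

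At map1, the regulator of P-cell genes, no change was called. Over the first part of the gene S5 was 358, 353 and 300.5 in Q libraries, against 282, 291 and 198 in V libraries, with all Q libraries above all V libraries (log2 fold change 0.41 ± 0.11, adjusted p = 0.033). Its refitted adjusted p was 0.102. H3K4me3 was 241, 269 and 275 in Q libraries, against 226, 585 and 363 in V libraries (log2 fold change −0.47 ± 0.25, adjusted p = 0.132). V replicate 1, the shallow library, lay below every Q library and the other V libraries lay above them. In the TSS window, which spans the annotated start, H3K4me3 was 134, 133 and 132 in Q libraries, against 103, 283 and 183 in V libraries (log2 fold change −0.40 ± 0.16, adjusted p = 0.0206), again with V replicate 1 below the Q libraries.

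The genes map2 and map3 are known for P cells, the mating type that the genotype does not give. Over the wide ORF window of the P-factor gene map2, S5 was 2444, 2286 and 2289.6 in Q libraries, against 2074, 1721 and 1756 in V libraries (log2 fold change 0.34 ± 0.06, adjusted p = 0.0121). In its TSS window, over the 3′ end, S5 was 231, 213 and 186 in Q libraries, against 104, 58.5 and 59.6 in V libraries (log2 fold change 1.54 ± 0.20, adjusted p = 0.000955). H3K4me3 in that TSS window was 166, 136 and 106 in Q libraries, against 56.3, 24.0 and 29.9 in V libraries (log2 fold change 1.93 ± 0.37, adjusted p = 1.15e-05). All Q libraries were above all V libraries in these 3, and both TSS changes were called. Over the ORF window H3K4me3 was 1818, 1635 and 1544 in Q libraries, against 1305, 1131 and 1166 in V libraries (log2 fold change 0.47 ± 0.06, adjusted p = 0.00118).

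At the M-factor receptor gene map3, H3K4me3 in the ORF window was 1378, 1254 and 1116 in Q libraries, against 822, 778 and 831 in V libraries (log2 fold change 0.62 ± 0.08, adjusted p = 0.00167). S5 was 1937, 1738 and 1673 in Q libraries, against 1565, 1581 and 1564 in V libraries (log2 fold change 0.18 ± 0.06, adjusted p = 0.0701). Q libraries were above V libraries for both, and H3K4me3 passed the test, as did S5 when refitted (adjusted p = 0.0448). The TSS window of map3 lies wholly inside his6 as well, and S5 there was 217, 213 and 207 in Q libraries, against 237, 318 and 323 in V libraries (log2 fold change −0.45 ± 0.12, adjusted p = 0.0144). H3K4me3 in this window was 147, 155 and 143 in Q libraries, against 232, 254 and 257 in V libraries (log2 fold change −0.73 ± 0.12, adjusted p = 3.57e-07). All Q libraries were below all V libraries here, and the ORF window of SPAC3F10.09, the identifier of his6, was called lower for H3K4me3 with a log2 fold change of −1.68.

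**Figure D2:**
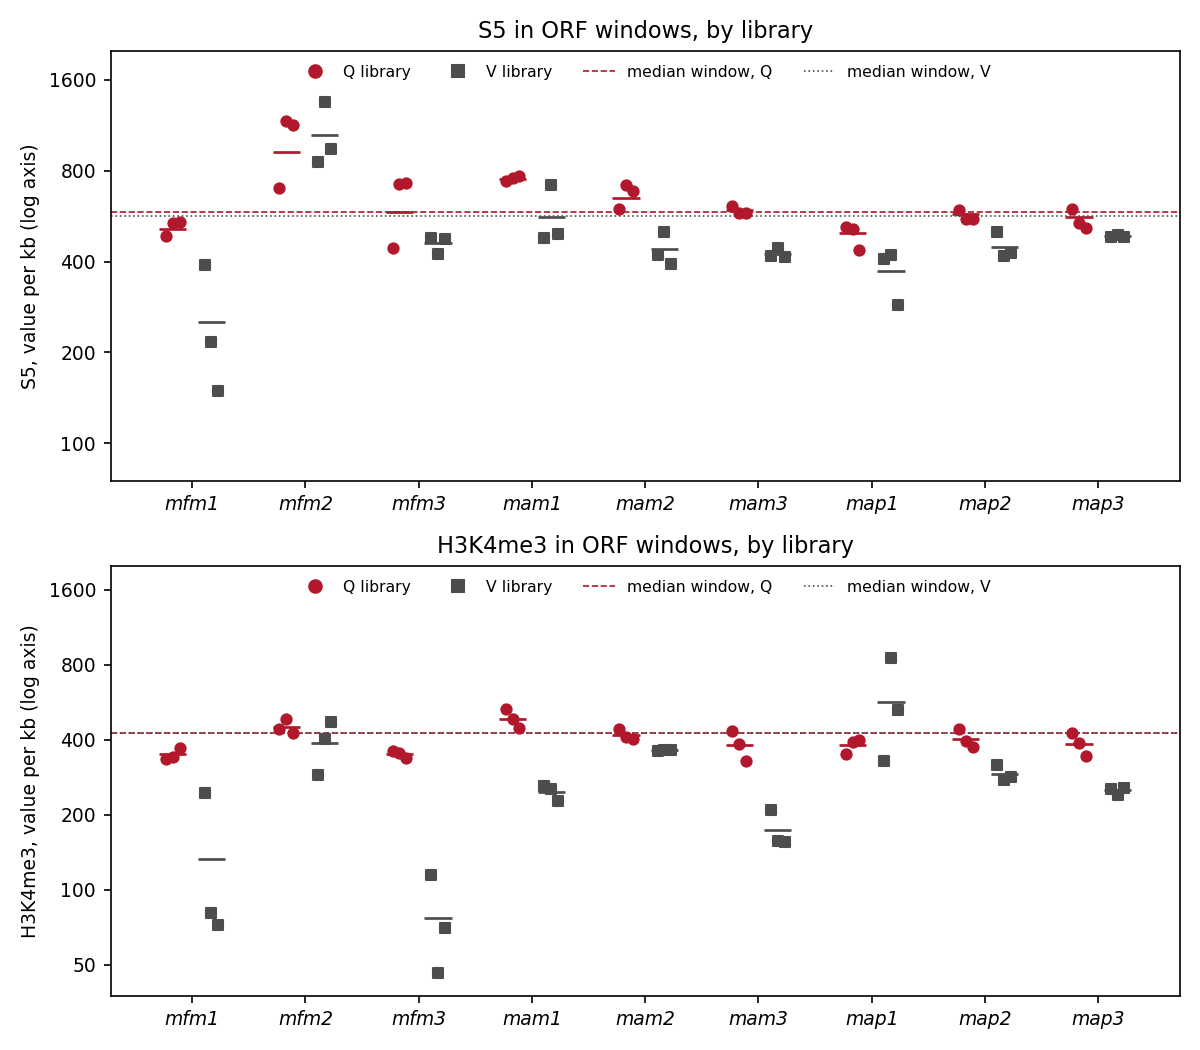
S5 and H3K4me3 in the ORF windows of the 9 genes, as deposited value per kb of window on a log axis, with Q libraries as red circles, V libraries as grey squares, group means as short bars (Q replicates 2 and 3 as 1 sample for S5) and the median tested window as lines. Q libraries of mfm1, mam1, mam2, mam3, map2 and map3 lie above their V libraries in both panels, and Q replicate 1 of mfm3 lies among its V libraries for S5.

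Counted over the 9 genes, S5 in ORF windows had 1 gene called higher and 0 lower. Of all windows 5.17% were called higher and 0.714% lower. The median log2 fold change was 0.42, against 0.00 over all windows. In 7 of the 9 every Q library was above every V library, as in 36.3% of all windows. H3K4me3 in ORF windows had 3 called higher (mfm1, mfm3 and mam3) and 0 lower, beside 19.4% and 13.8% of all windows. The median was 0.62, against −0.01 over all windows, and 7 of the 9 had all Q libraries above all V libraries, against 42.9% of all windows.

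In TSS windows H3K4me3 was called higher at 5 genes (mfm1, mfm3, mam1, mam3 and map2) and lower at 0, where 36.4% of 6556 windows were called higher and 21.7% lower. S5 was called higher at 2 genes (mfm1 and map2) and lower at 0, where 7.52% of 6557 windows were called higher and 1.51% lower. S2 gave 0 calls among the 9 with limma, edgeR or DESeq2, where 1.54% of ORF and 0.305% of TSS windows were called. At an unadjusted p under 0.05 the limma fits had 5 of the 9 in ORF windows (mfm3 lower, and mam1, mam2, mam3 and map2 higher) and 2 in TSS windows, where 39.4% of all ORF and 21.0% of all TSS windows had one. With Q replicates 2 and 3 as 1 library, none of the 9 had an adjusted p under 0.05 for S2. Without replicate 3, which holds the shared S2 column, the TSS count was also 0.

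H2A.Z, the histone variant followed through the Myc tag, passed the test in both directions without a call. Over mfm1 it was 401, 513 and 474 in Q libraries, against 608, 650.2 and 634 in V libraries (log2 fold change −0.45 ± 0.08, adjusted p = 0.00502). Over mam2 it was 1610.4, 1861 and 1900.5 in Q libraries, against 2090.3, 2341 and 2218 in V libraries (log2 fold change −0.31 ± 0.05, adjusted p = 0.003). Q libraries were below V libraries at both, and the same held for mfm2, map1 and map3, with log2 fold changes of −0.32, −0.26 and −0.32. Of all ORF windows, 40.7% had every Q library below every V library for H2A.Z, and 41.4% had every Q library above. Over map2 it was 3158, 2763 and 2732 in Q libraries, against 2428, 2170.1 and 2282 in V libraries, with Q libraries above V libraries (log2 fold change 0.33 ± 0.04, adjusted p = 0.0019). H2A.Z in the TSS window of mam2 was 272, 494 and 503 in Q libraries, against 601, 712 and 706 in V libraries, lowest in Q replicate 1, whose TSS profiles resembled each other across antibodies (log2 fold change −0.72 ± 0.22, adjusted p = 0.00565). In the TSS window over the 3′ end of mam1 it was 462, 353 and 342 in Q libraries, against 269, 238 and 236 in V libraries, above V libraries in every Q library (log2 fold change 0.63 ± 0.09, adjusted p = 1.8e-06). Calls were 0 of 9 with limma, edgeR or DESeq2, where 2.65% of ORF and 9.65% of TSS windows were called, and 6 and 4 of the 9 had an unadjusted p under 0.05, against 79.1% and 79.4% of all windows.

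Histone H3, H3K9ac, H3K9me2 and H3K9me3 gave 0 calls among the 9 in either kind of window with limma, edgeR or DESeq2. In ORF windows 1.38%, 0%, 0.928% and 0.669% of all windows were called for these antibodies, and in TSS windows 2.41%, 0%, 0.168% and 0.747%. At an unadjusted p under 0.05 there were 2, 2, 1 and 2 of the 9 in ORF windows and 4, 3, 1 and 2 in TSS windows, in the same order of antibodies. Over all windows such a p was found in 32.8%, 14.2%, 7.29% and 35.2% in ORF windows and 35.9%, 26.3%, 7.35% and 27.0% in TSS windows. For H3K9ac 0 windows of either kind had an adjusted p under 0.05 with limma. In H3K9ac TSS windows, Spearman's rho of Q replicate 1 with Q replicates 2 and 3 was −0.160 and −0.192, against 0.941 between these. H3K9me2 V replicates 2 and 3 held 856936 and 1182100 reads in ORF windows. Absent calls therefore do not show that these marks were unchanged. H3K9ac over mfm3 was 546, 602 and 1079 in Q libraries, against 484, 481 and 516 in V libraries, highest in Q replicate 3 (log2 fold change 0.52 ± 0.19, adjusted p = 0.314). H3 in the TSS window of mfm3 was 225, 216 and 234 in Q libraries, against 277, 320.2 and 320.2 in V libraries, with all Q libraries below all V libraries (log2 fold change −0.44 ± 0.10, adjusted p = 0.000135). H3K9me3 over the 3′ end of mfm2 was 106, 110.1 and 104 in Q libraries, against 75.3, 78.2 and 55.3 in V libraries (log2 fold change 0.63 ± 0.18, adjusted p = 0.0343), where V replicate 3 rests on 15 reads.

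**Figure D3:**
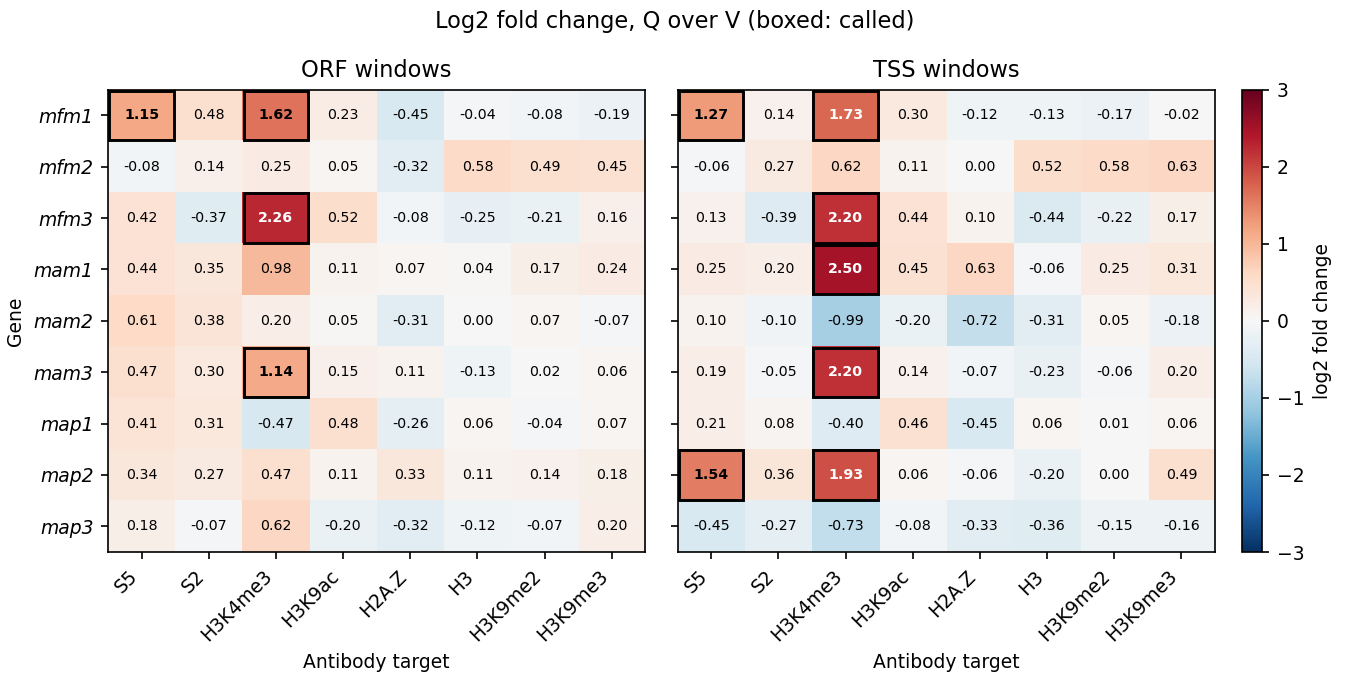
Log2 fold changes of Q over V for the 9 genes and 8 antibody targets, in ORF windows (left) and TSS windows (right), with called cells boxed. All 11 called cells are S5 or H3K4me3 and positive.

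Over all genes, the size of a change went with the level in V cells. Tested ORF windows were put in 10 equal groups by mean V value per kb, numbered from the lowest, and the median log2 fold change of H3K4me3 was 2.29 in group 1 and −1.20 in group 10. The V values enter both measures, so part of this slope is arithmetic. For H3K4me3, mfm3 lay in group 1, where 98.6% of windows were called higher. Both mfm1 and mam3 lay in group 2, with a median of 1.31 and 80.9% called higher. All 9 genes lay between the 10th and the 90th percentile of the H3K4me3 changes in their own group. With TSS windows grouped likewise, mfm3 lay in group 1, mam1 and map2 in group 2, and mfm1 and mam3 in group 3. In these groups 99.2%, 99.8% and 98.6% of TSS windows were called higher for H3K4me3.

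For S5 the median ran from 1.01 in group 1 to −0.67 in group 10. The window of mfm1 lay in group 1, where 50.0% of windows were called higher. Above the 90th percentile of their own group lay 3 genes. The exporter gene mam1 had 0.44, against 0.30 at that percentile, the receptor gene mam2 had 0.61, against 0.53, and mfm2 had −0.08, against −0.30. The other 6 lay between the 10th and the 90th percentile. By S5 in TSS windows, mfm1 and map2 lay in group 1, where 64.6% of windows were called higher.

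**Figure D4:**
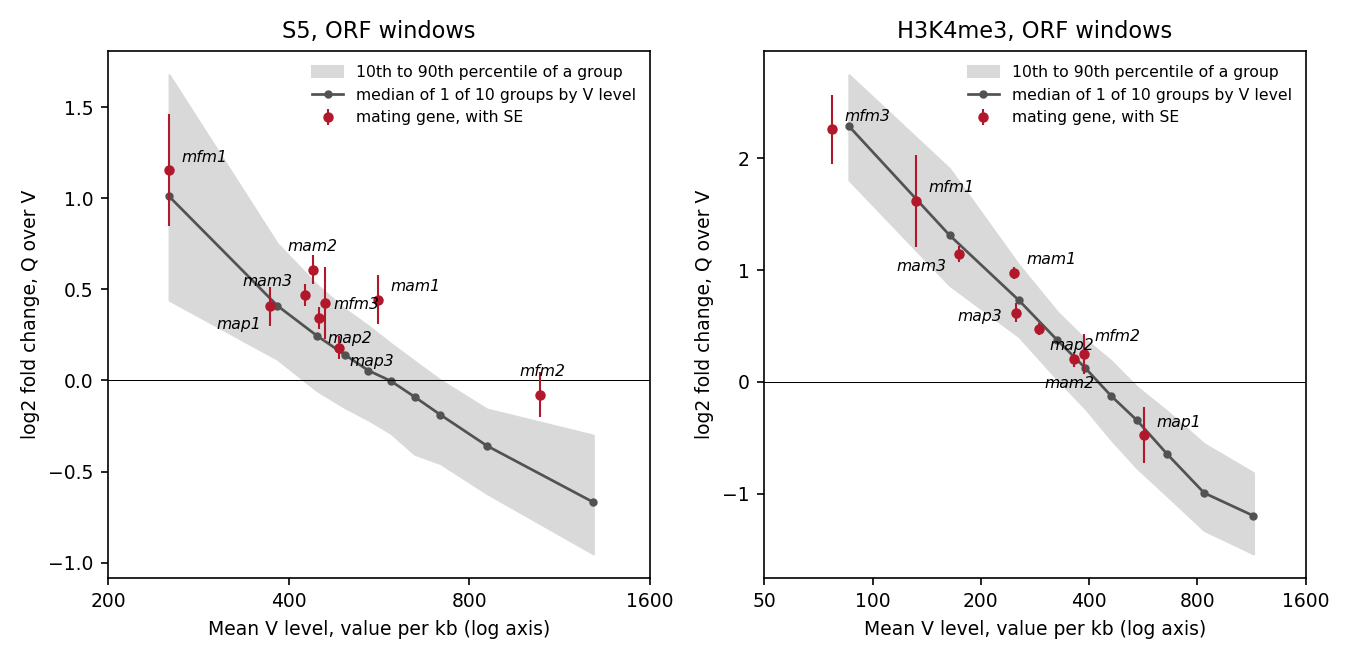
Log2 fold change of Q over V against the mean V value per kb (log axis) for S5 (left) and H3K4me3 (right) in ORF windows, with the 9 genes and their SE over the median and the 10th to 90th percentile band of these 10 groups of all tested windows. For S5, mam1, mam2 and mfm2 stand above the band, and for H3K4me3 all 9 genes lie within the percentiles of their own groups.

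By S5 level per kb of ORF window, mfm2 stood at percentile 97.5 of tested windows in Q cells (926 per kb) and 91.8 in V cells (1049.8 per kb). The exporter gene mam1 stood at percentile 91.2 in Q cells (749.9 per kb) and 49.0 in V cells (563 per kb). The receptor gene mam2 stood at percentile 69.8 in Q cells (649 per kb) and 23.8 in V cells (439 per kb). Lowest of the 9 was map1 in Q cells (496 per kb) and mfm1 in V cells (252 per kb), and the median over all windows was 586 per kb in Q cells and 568 in V cells.

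Windows of genes known from one mating type were not separated by S5 level. The 7 genes of M cells (the mfm and mam genes and sxa2) had 513 to 926 per kb in Q cells and 252 to 1049.8 in V cells. The 4 genes of P cells (map2, map3, map4 and sxa1) had 563 to 939 per kb in Q cells and 400.2 to 919.5 in V cells. The gene fills 16.3% of the map2 window, which also holds 1355 bp of ura6, and his6 overlaps 1955 bp of the map3 window. Levels of these 2 windows are thus not those of the genes alone. S5 in the window of mat2-Pc, a gene of the P type, was 646, 463 and 482 in Q libraries, against 188, 117 and 101 in V libraries (log2 fold change 2.00 ± 0.13, adjusted p = 0.00429). In the window of mat1-Mi, a gene of the M type, it was 53.0, 51.7 and 68.2 in Q libraries, against 55.6, 58.1 and 50.8 in V libraries (log2 fold change 0.06 ± 0.24, adjusted p = 0.844). Q libraries were above V libraries at mat2-Pc and overlapped them at mat1-Mi, and mating-type sequences exist in several copies, so the copy a read came from is uncertain.

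A list of 20 other mating genes, covering pheromone processing and breakdown, signalling, transcription and fusion, was read from the same fits. For S5 in ORF windows (median log2 fold change 0.07) and for S2, 0 of the 20 were called with limma, edgeR or DESeq2, and 11 and 5 had an unadjusted p under 0.05 with limma, against 58.7% and 39.4% of all windows. For H3K4me3 in ORF windows 4 of the 20 were called higher and 0 lower (median 0.46), a share close to the 19.4% of all windows called higher. Over mei2, which encodes the RNA-binding inducer of meiosis, H3K4me3 was 3079.8, 2855 and 2385 in Q libraries, against 862, 768 and 755 in V libraries (log2 fold change 1.80 ± 0.07, adjusted p = 0.000495). Over ste11 it was 2405, 2169 and 1897 in Q libraries, against 1036, 904 and 874 in V libraries (log2 fold change 1.20 ± 0.06, adjusted p = 0.000495). Q libraries were well apart from V libraries at both genes. The others were rgs1, a regulator of G protein signalling (log2 fold change 1.18 ± 0.07, adjusted p = 0.000495), and cwp1, a prenyltransferase subunit gene (log2 fold change 1.01 ± 0.14, adjusted p = 0.00177).

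S5 over ste11 was 3499, 3738 and 3984 in Q libraries, against 4394, 5342 and 4603 in V libraries, with all Q libraries below all V libraries (log2 fold change −0.35 ± 0.09, adjusted p = 0.0317). By S5 level in V cells the ste11 window lay in group 10, where the median log2 fold change was −0.67. S5 over mei2 was 4445, 5426 and 5709 in Q libraries, against 4337, 5573 and 4859.9 in V libraries, which overlap (log2 fold change 0.08 ± 0.10, adjusted p = 0.537). In TSS windows 7 of the 20 were called higher and 1 lower (gpa1) for H3K4me3, with a median of 0.74, and 2 higher for S5 (prm1 and ste6), genes that were named after their values were seen. Over all TSS windows 36.4% were called higher and 21.7% lower for H3K4me3, and 7.52% higher for S5, so the list's shares of higher calls were near those of all windows. H2A.Z over ste11 was 4133, 3298 and 3258 in Q libraries, against 2033, 1523 and 1653 in V libraries (log2 fold change 1.04 ± 0.04, adjusted p = 0.000327). Of the 20, only ste11 was called for H2A.Z in ORF windows, where 2.65% of all windows were called. By H2A.Z level in V cells its window lay in group 1, where 8.97% of windows were called higher. In TSS windows ste11 and sxa1 were called higher for H2A.Z, again named after their values were seen. Over all TSS windows 8.37% were called higher for H2A.Z. The letters TTCTTTGTT were present in 8 of the 20 promoters and CTTTGTT in 10.

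The 5 genes nearest in pattern to the mean of the 6 genes of M cells were pfl5, pnc1, SPAC139.05, pku80 and gut2-antisense-1, by root mean square difference over 24 differences (8 antibodies, 3 replicate numbers). Each difference set a Q library against the V library of the same number, a pairing that is arbitrary because same-numbered libraries did not deviate together. Their distances from that mean were 0.150 to 0.156, against a median of 0.615 over the other windows. The 6 genes themselves lay at 0.226 (mam1) to 0.550 (mfm3). Their mean log2 difference was 0.50 for S5, 0.21 for S2 and 1.07 for H3K4me3.

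Of the 13 windows in the tables that overlap an ORF window of the 9, 2 were called higher for H3K4me3 (SPAC513.04 beside mfm2, at 1.23, and SPNCRNA.1534 beside mam1, at 1.20). Another 3 were called lower, SPAC3F10.09 over map3 and, overlapping the window of map2, SPCC1795.05c, the identifier of ura6 (−1.12), and the non-coding gene rrk1 (−1.19). None of the 13 was called for S5. Over mfm3-antisense-1 the H3K4me3 log2 fold change was −0.14 and over map1-antisense-1 it was −0.19. The first of these windows contains that of mfm3, where it was 2.26.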

How the data were processed

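The authors aligned single-end reads of 36 bases with BWA 0.7.17 to ASM294v2, used SAMtools 1.17 and counted reads in windows with deepTools 3.3.2. The deposited signal is the read number of a window divided by a DESeq2 size factor of the library, and whole reads were recovered from all 96 columns (tolerance 0.0001 reads). Batch removal is named, but each deposited value is a whole read number divided by the size factor, so no batch effect had been subtracted from it. Drosophila spike-in chromatin was added, and whether it entered these values is not stated in the sources used here. Fold changes and p-values of the authors in the same tables were not used, nor were 2 input libraries.

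Each antibody and window type was fitted with limma 3.58.1 (trend, R 4.3.3) on log2(value + 1), with replicate number as a block, for windows at 10 or more in at least 3 of 6 libraries, with Benjamini-Hochberg adjustment over the table. A call needed a log2 fold change beyond 1 at an adjusted p under 0.05. The fits were tested on simulated data. Alternatives were no block, edgeR 4.0.16 and DESeq2 1.42.0 on recovered reads, library totals, no filter, pseudocounts of 5 and 0.5, values relative to H3, each replicate left out, and Q replicates 2 and 3 merged for S5 and S2. The genes named are the 9, genes of a list of 20 called in ORF windows, the 5 nearest in pattern, genes with overlapping windows, and marker and mating-type genes of M and P cells. Further calls of the 20 are said to be named after their values were seen. The members and lists were chosen with earlier results of these data known.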

Additional observations from a re-analysis of the deposited data

How the results depend on the processing

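Of the single fold changes of the 9 genes for S5 and H3K4me3 under 12 alternatives, 402 kept their direction and stayed called or not called. Another 4 lost their call, 3 gained one and 5 reversed. Adjusted p alone could still cross 0.05. For S5 in ORF windows it ran from 0.00464 to 0.151 at mam1 and from 0.000143 to 0.459 at mfm3 over the alternatives. The reversals were all of small changes: mfm2 S5 in the ORF window without replicate 1 (−0.25 to 0.025 over the replicates left out), mfm2 H3K4me3 in the ORF window relative to H3 (−0.33), mfm2 S5 in the TSS window with library totals (0.022) and without replicate 2 (−0.19 to 0.071), and mfm3 S5 in the TSS window without replicate 2 (−0.023 to 0.33). The cause was not tested. Leaving out 1 replicate gave 0 to 1 S5 calls among the 9 in ORF windows and 1 to 2 in TSS windows, the lower number without replicate 3 in both. The 12 counts of 0 stayed 0 under all alternatives. With Q replicates 2 and 3 as 1 library, 15 of 6579 ORF and 0 of 6557 TSS windows were called for S2 (limma, unadjusted p under 0.05 in 32.3% and 12.9%), against 101 and 20 with them apart. Among the 20 other genes, library totals gave 1 S5 call and 0 H2A.Z calls in ORF windows. Relative to H3 there were 1 and 0 in ORF windows, and 0 S5 and 4 H2A.Z calls in TSS windows. Leaving out 1 replicate gave 0 to 1 S5 and 1 to 2 H2A.Z calls in ORF windows, and 1 to 2 S5, 0 to 1 H3K9ac, 1 to 2 H2A.Z and 0 to 2 H3 calls in TSS windows.

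Replicate numbers did not pair the samples: all 3 correlations of same-numbered deviations were over 0.1 in 3 of 16 fits (lowest −0.543, highest 0.718), and in 1 of 16 each Q library correlated best with its own number. With no replicate block the counts among the 9 were unchanged, 1 and 2 for S5, 3 and 5 for H3K4me3 in ORF and TSS windows, and 0 for the others. Low read numbers limit H3K4me3 in V libraries, where called TSS windows rest on as few as 16 reads.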
